A study of Rattus norvegicus with 6 samples.

Results

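The translation initiation and elongation factors described here were the features of a rat amygdala expression table whose gene symbol begins with Eif1 to Eif6, Eef1 or Eef2 and whose locus lies outside chromosomes X and Y. They numbered 62 of the 32662 features in the table. The regular expression matched 65 features, and 3 of them (Eif1ax, Eif2s3 and Eif2s3y) were left out because they lie on X or Y. The 62 features carry 61 symbols, since Eif3h is listed under 2 identifiers, and 2 of them are named as pseudogenes (Eif3i-ps1 and Eif6-ps1). The pattern also takes in regulators that are not themselves initiation or elongation factors, such as the eIF2 kinases, the eIF4E-binding proteins and the eEF2 kinase. Members were taken by name, although earlier results of these data were known when the choice was made.

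Poly(A)-selected, directional RNA libraries were made from amygdala tissue. The animals were Sprague Dawley rats, which are outbred, all labelled male and at postnatal day 38. The 3 B-CTRL libraries came from rats put through behavioural testing for social play, and the 3 NB-CTRL libraries from rats that were not tested. No further treatment, genotype or agent is given for either group. Whether every library comes from its own animal is not stated, and the spread behind each p-value may therefore be technical. Values are FPKM, fragments scaled to transcript length and to library depth, so levels of different genes can be set side by side. Library values are given below in the order 1, 2 and 3.

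Translation of a messenger starts when eIF2, carrying GTP and the initiator tRNA, joins the small ribosomal subunit together with eIF1, eIF1A, eIF3 and eIF5. The eIF4 factors bind the 5′ cap of the messenger, unwind it and bring that subunit to it, and eIF5B then joins the large subunit. During elongation eEF1A delivers aminoacyl-tRNA and eEF2 moves the ribosome along. Control is exerted mainly by kinases that phosphorylate eIF2, by proteins that bind eIF4E, and by the kinase of eEF2. In neurons these steps are known for local protein synthesis at synapses and for their part in memory.

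Some libraries stood apart from their group, and these are set out before the results. The chromosome Y features summed to 0.612 FPKM in B-CTRL 1 and to between 89.4 and 129 FPKM in the other libraries, although all are labelled male. Among the features left out by the rule, Eif2s3y stood at 0.317 FPKM in B-CTRL 1 and at 49.5 to 89.9 FPKM elsewhere, and its X-linked counterpart Eif2s3 at 74.5 FPKM there and at 31.9 to 40.4 FPKM elsewhere. All 5 choroid plexus markers were highest in B-CTRL 1, with a summed level of 7218 FPKM against 3.39 to 28.0 FPKM in the others. Markers of excitatory neurons also differed by library, from 11.5 to 409 FPKM in B-CTRL and from 21.7 to 277 FPKM in NB-CTRL, and striatal markers from 844 to 2927 and from 719 to 1791 FPKM. General neuronal markers overlapped (1593 to 1715 against 1460 to 1845 FPKM). Oligodendrocyte markers also overlapped but varied widely, from 7263 to 14396 against 6168 to 12124 FPKM. Those of inhibitory neurons ran from 428 FPKM, in B-CTRL 1, to 710 FPKM, against 574 to 780 FPKM. Markers of the amygdala's nuclei came to a summed level of 128 FPKM in B-CTRL 1 and of 214 to 293 FPKM elsewhere. Most of that sum came from Tac3 and Meis2. Which nuclei each library held was not tested. Rspo2, a basolateral amygdala marker, was highest in B-CTRL 1 (19.3 FPKM against at most 2.16). It was near absent in B-CTRL 2 (0.299 FPKM) and NB-CTRL 1 (0.502 FPKM). Tac3, Prkcd, Foxp2 and Meis2 were lowest in that library (Meis2 at 49.3 FPKM against 86.3 to 145 FPKM). Summed over all features, FPKM came to between 579141 and 641725 per B-CTRL library and to between 522422 and 536937 per NB-CTRL library. The part of tissue makeup and of these sums in the differences below was not tested, and fewer cells of a type cannot be told apart from less RNA per cell in such bulk samples.

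Most translation factor genes had a somewhat higher mean in the tested rats, and no single gene passed the test. Of the 62 features, 59 reached the minimum of 0.5 FPKM averaged over all libraries. Eif6-ps1 and the Eif3h feature on chromosome 6 at 108635219 to 108796124 were listed at 0 throughout, and the germline-type cap-binding gene Eif4e1b reached at most 0.355 FPKM. Of the 59, 46 had a higher mean in B-CTRL and 13 a lower one, against 49.7% of all 14043 tested features with a higher mean and 50.3% with a lower one. Their median log2 difference was 0.19 (quartiles 0.026 and 0.32), while that of all tested features was -0.0024. The log2 differences ran from -0.63 for Eif4g3 to 0.54 for Eif4ebp1. In limma with Benjamini-Hochberg adjustment 0 of the 59 passed 0.05 over all features, the lowest adjusted p being 0.400, and the background was equally 0% of all features called.

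At an unadjusted limma p under 0.05 the members counted 12 higher and 1 lower, where the background was 6.25% of features higher and 6.07% lower. The count of 12 depended on the libraries. Leaving out B-CTRL 1, 2 or 3 gave 5, 5 or 19 members, where 6.99%, 3.99% or 12.9% of all features were higher at that p. Leaving out NB-CTRL 1, 2 or 3 gave 5, 2 or 5 members, against 2.78%, 1.74% or 2.76% of all features. For 21 members each B-CTRL library lay above each NB-CTRL library, and for 5 each lay below, against a background of 11.7% above and 12% below. The groups overlapped for the other 33. The number with a higher mean was steadier, at 43 to 49 of 59 whichever library was left out. Without B-CTRL 1, the library that held choroid plexus transcripts, it was 44 with a median of 0.23, and without B-CTRL 2 it was 49 with a median of 0.16.

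**Figure D1:**
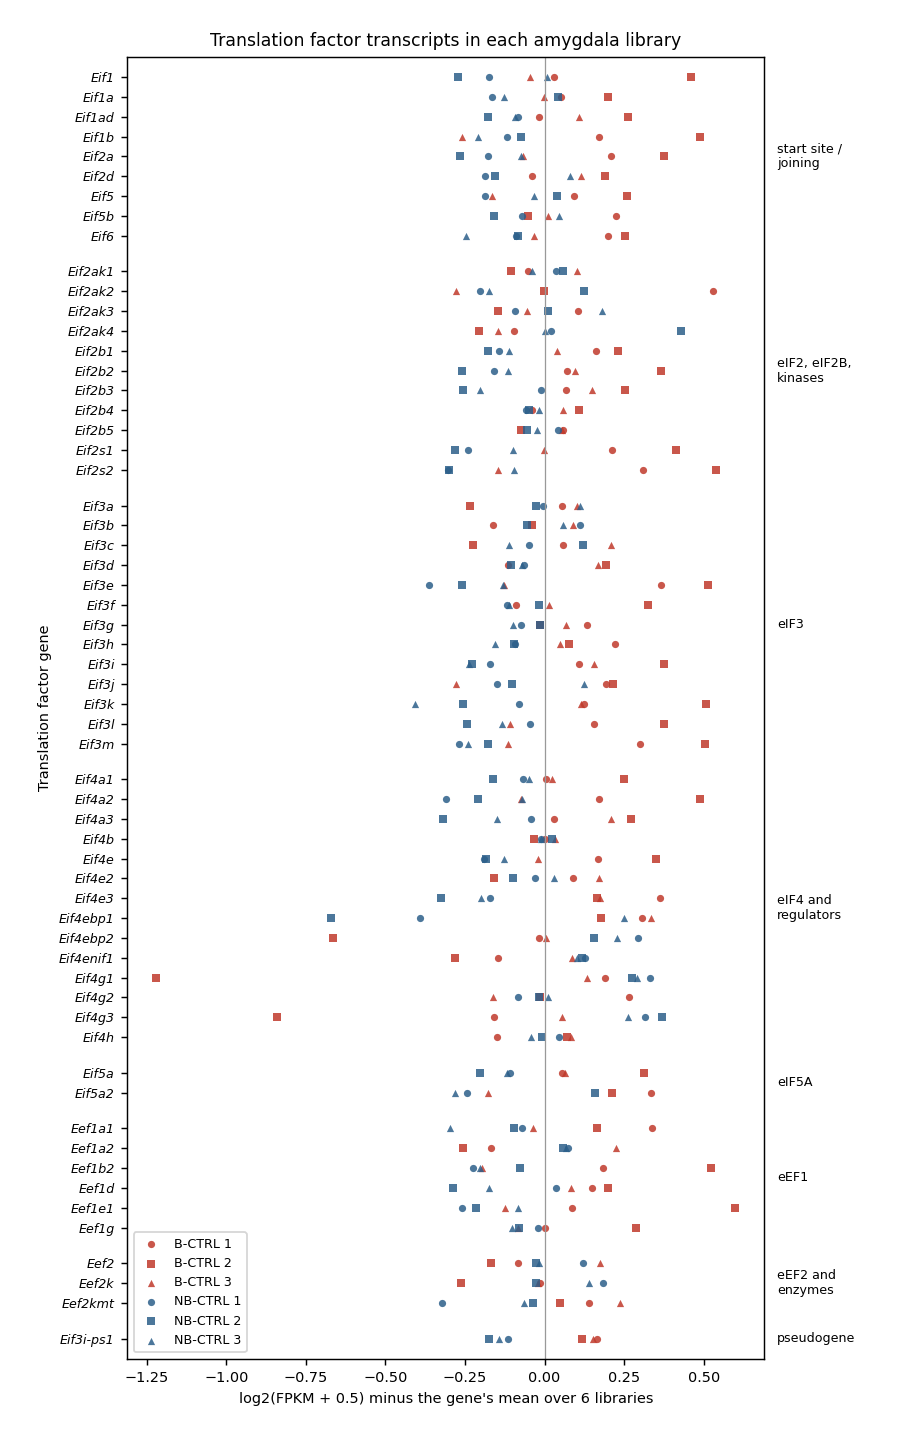
Deviation of log2(FPKM + 0.5) from each gene's mean over the 6 libraries, for the 59 tested translation factor features grouped by role; red marks are B-CTRL and blue marks NB-CTRL libraries, with 1 shape per replicate number. B-CTRL 2 (red squares) was the highest library for 31 genes and stood far to the left for Eif4g1 and Eif4g3.

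Expression levels spanned from 1.44 FPKM for Eef2kmt to 1451 FPKM for Eef1a1, as means over the 6 libraries. B-CTRL 2 held the highest value for 31 of the 59 genes, B-CTRL 1 for 10 and B-CTRL 3 for 9. Over all tested features B-CTRL 2 was highest for 29.3%, B-CTRL 1 for 17.3% and B-CTRL 3 for 14.6%. The same library was also the lowest for 15 of the 59. In the rn6 coordinates of the table, loci of genes described below include Eef1a1 (ENSRNOG00000009439) at chromosome 8, 85838868 to 85840818, Eef1a2 (ENSRNOG00000012477) at chromosome 3, 176657106 to 176666282, Eif2s1 (ENSRNOG00000009432) at chromosome 6, 102048371 to 102073041, Eif3i (ENSRNOG00000047185) at chromosome 5, 147796661 to 147811590, Eif4a2 (ENSRNOG00000001815) at chromosome 11, 81373047 to 81379871 and Eif4g3 (ENSRNOG00000014368) at chromosome 5, 156396694 to 156564037.

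The genes grouped here under start site selection and subunit joining, with some related factors, leaned one way in their group means. All 9 had a higher mean in B-CTRL (median log2 difference 0.24), and 0 of 9 had an unadjusted limma p under 0.05, against 12.3% of all features. By library, the average log2 deviation of the 9 was uneven, at 0.10, 0.27 and -0.038 in B-CTRL against -0.14, -0.12 and -0.072 in NB-CTRL. Eif1, which keeps the scanning ribosome from starting at wrong codons, was the most abundant of them, at 363, 489.8 and 345 FPKM in B-CTRL and 315, 295 and 358 FPKM in NB-CTRL. B-CTRL 2 was far above the others and NB-CTRL 3 lay above B-CTRL 3, so the groups overlapped (log2 difference 0.29 ± 0.17 SE, 0.14 without B-CTRL 2 and 0.027 with quantile normalization). Its paralog Eif1b stood at 174, 217 and 129 FPKM against 143, 147 and 134 FPKM, again with B-CTRL 2 highest and B-CTRL 3 lowest of all (0.27 ± 0.20, and 0.090 without B-CTRL 2). Eif2a, an alternative carrier of initiator tRNA, was at 24.8, 27.9 and 20.4 FPKM against 18.8, 17.7 and 20.3 FPKM. Its groups just failed to overlap, and it had the widest difference of these 9 (0.35 ± 0.15). Eif6, which keeps the large subunit from joining too early, stood at 70.7, 73.4 and 60.1 FPKM against 57.8, 58.1 and 51.7 FPKM, also without overlap (0.28 ± 0.13). The GTPase-activating factor Eif5 (0.12 ± 0.15) and the joining GTPase gene Eif5b (0.12 ± 0.14) lay within 1 SE of 0. The remaining members were Eif1a (0.17 ± 0.13), Eif1ad (0.24 ± 0.13), whose groups did not overlap, and the tRNA-binding factor gene Eif2d (0.18 ± 0.14).

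The subunits of eIF2, which brings the initiator tRNA, had higher means in B-CTRL than in NB-CTRL, as did all 5 subunits of its exchange factor and 1 of its 4 kinases. The alpha subunit gene Eif2s1, whose product is the one the kinases phosphorylate, stood at 58.7, 67.6 and 50.6 FPKM against 42.8, 41.6 and 47.3 FPKM. Its groups did not overlap, and the log2 difference was 0.41 ± 0.14 SE (59.0 ± 8.52 against 43.9 ± 2.98 FPKM, mean ± SD, n = 3 each, limma adjusted p = 0.400). The beta subunit gene Eif2s2 stood at 91.2, 107 and 66.4 FPKM against 59.4, 59.6 and 68.7 FPKM (0.47 ± 0.19). B-CTRL 3 lay below NB-CTRL 3 here. Of eIF2B, the exchange factor that reloads eIF2 with GTP, all 5 subunits had a higher mean. Eif2b1 (30.2, 31.7 and 27.7 against 24.4, 23.8 and 24.9 FPKM), Eif2b2 (21.6, 26.6 and 22.0 against 18.3, 17.1 and 18.9 FPKM) and Eif2b3 (0.31 ± 0.14 log2) had groups that did not overlap. The differences of Eif2b4 (0.082 ± 0.12) and of Eif2b5 (0.025 ± 0.12), the catalytic subunit, were within 1 SE of 0.

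Of the 4 eIF2 kinases, 3 had a lower mean in B-CTRL and 0 an unadjusted limma p under 0.05, against 12.3% of all features. The amino acid sensor Eif2ak4 (GCN2) stood at 3.64, 3.33 and 3.49 FPKM against 3.98, 5.45 and 3.92 FPKM. Each B-CTRL library was below each NB-CTRL library, with NB-CTRL 2 well above the rest (-0.30 ± 0.18). The difference was -0.16 without NB-CTRL 2 and -0.095 with the length trend removed. Eif2ak3, the endoplasmic reticulum stress sensor PERK (-0.065 ± 0.15), and Eif2ak1, the heme-regulated kinase (-0.036 ± 0.12), differed by less than 1 SE. Both were above 0 after removal of the length trend, as was Eif2ak3 with quantile normalization, and with median scaling they were above 0 (0.027 and 0.060) but below the median of all features, which that scaling raised to 0.087. Eif2ak2, the double-stranded RNA sensor PKR, stood at 8.84, 5.97 and 4.84 FPKM against 5.13, 6.56 and 5.24 FPKM (0.17 ± 0.24). Its highest value was that of B-CTRL 1, and without that library the sign turned (-0.056). Eif2ak1 was the most abundant of the 4 in every library (32.9 to 38.1 FPKM).

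The eIF3 subunits together form the largest initiation factor. Of 13 tested subunits 11 had a higher mean in B-CTRL (median log2 difference 0.17). While 6.25% of all features were higher at an unadjusted limma p under 0.05, 4 subunits had such a p, all higher. These were Eif3i (0.43 ± 0.12), Eif3k (0.50 ± 0.16), Eif3e (0.50 ± 0.19) and Eif3m (0.46 ± 0.17). Eif3i had the lowest p of all 59 (limma adjusted p = 0.400), at 47.8, 57.6 and 49.4 FPKM against 39.3, 37.8 and 37.5 FPKM. Eif3k stood at 137, 178 and 136 FPKM against 118, 105 and 94.4 FPKM. Neither gene's groups overlapped. The locus entry of Eif3i also holds Tmem234 at a mean of 8.63 FPKM, and that of Eif3k also holds SNORA9 at a mean of 11.9 FPKM. Eif3e stood at 78.1, 86.7 and 55.5 FPKM against 47.0, 50.6 and 55.3 FPKM, so that B-CTRL 3 and NB-CTRL 3 nearly met. In Eif3m, at 95.8, 110.4 and 71.7 FPKM against 64.5, 68.7 and 65.7 FPKM, B-CTRL 3 was likewise the B-CTRL library nearest to the untested rats. The large scaffold subunits Eif3a (-0.052 ± 0.13), Eif3b (-0.075 ± 0.12) and Eif3c (0.028 ± 0.15) had overlapping groups and differences within 1 SE of 0, and with median scaling Eif3a (0.045) and Eif3b (0.021) were above 0 but below the shifted median of all features (0.087). Eif3f, the most abundant subunit, stood at 119.7, 159.9 and 129 FPKM against 117, 126 and 118 FPKM (0.17 ± 0.14, 0.044 without B-CTRL 2 and -0.0040 with quantile normalization). Of the other subunits, Eif3h did not overlap, at 36.9, 33.4 and 32.7 FPKM against 29.6, 29.5 and 28.3 FPKM, while Eif3d (0.16 ± 0.13), Eif3g (0.12 ± 0.11), Eif3j (0.086 ± 0.17) and Eif3l (0.28 ± 0.16) had higher means. The pseudogene feature Eif3i-ps1, at chromosome 2, 145936826 to 145937813 in rn6, was listed at 12.9, 12.5 and 12.8 FPKM against 10.5, 10.1 and 10.3 FPKM (0.29 ± 0.12). Since fragments of Eif3i could be split between the gene and a near-identical copy, both values are uncertain.

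The eIF4 group held both the highest and the lowest differences of all members. Of 14 tested genes 9 had a higher mean and 5 a lower one (median 0.064). Groups did not overlap for 4 upwards and 4 downwards, against 11.7% and 12% of all features. Eif4e, which binds the cap, stood at 71.9, 81.6 and 63.0 FPKM against 55.9, 56.2 and 58.5 FPKM, without overlap (0.33 ± 0.13). Its paralog Eif4e3 was at 8.62, 7.45 and 7.51 FPKM against 5.80, 5.17 and 5.68 FPKM, a wider gap relative to its spread (0.47 ± 0.14, limma adjusted p = 0.400). The repressive paralog Eif4e2 overlapped (0.068 ± 0.14). The helicase gene Eif4a2 stood at 594, 741 and 502 FPKM against 426, 457 and 503 FPKM, and was the most abundant of the group (0.39 ± 0.17, 0.24 without B-CTRL 2 and 0.057 with quantile normalization). NB-CTRL 3 lay just above B-CTRL 3 for it. Eif4a1, the other cap helicase, stood at 213, 252 and 216 FPKM against 202, 189.6 and 205 FPKM without overlap (0.19 ± 0.12, 0.11 without B-CTRL 2 and -0.021 with quantile normalization). Eif4a3, a helicase of the exon junction complex rather than of the cap, stood at 69.3, 82.1 and 78.6 FPKM against 66.0, 54.4 and 61.2 FPKM (0.34 ± 0.13). Its groups did not overlap. The helicase cofactors Eif4b (-0.00086 ± 0.10) and Eif4h (0.0021 ± 0.12) were level between groups.

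The scaffolds that join the cap to the ribosome and the eIF4E-binding repressors went different ways among themselves. Eif4g3 stood at 36.9, 22.8 and 42.9 FPKM against 51.4, 53.3 and 49.6 FPKM (34.2 ± 10.3 against 51.4 ± 1.89 FPKM, mean ± SD, n = 3 each). Each B-CTRL library was lower, and this was the member with the largest negative difference (-0.63 ± 0.23, limma adjusted p = 0.400). Eif4g1 stood at 37.3, 13.7 and 35.9 FPKM against 41.2, 39.6 and 40.1 FPKM (-0.60 ± 0.36). B-CTRL 2 alone was far below, and without it the difference was -0.14, while that of Eif4g3 was -0.37. With the length trend removed Eif4g3, whose locus is long, stood at -0.35 and no longer had the lowest difference, Eif4g1 standing at -0.60 and Eif4ebp2 at -0.46. Eif4g2, a related scaffold that does not bind eIF4E, stood at 186, 154 and 138 FPKM against 146, 153 and 156 FPKM, with overlap (0.060 ± 0.14, and -0.12 with quantile normalization). Eif4ebp1, a repressor that releases eIF4E when mTOR phosphorylates it, had the highest difference of all 59 (0.54 ± 0.25). It stood at 7.43, 6.75 and 7.59 FPKM against 4.39, 3.53 and 7.13 FPKM, so NB-CTRL 3 reached into the tested range, and the difference was 0.80 without NB-CTRL 3 and 0.34 without NB-CTRL 2. Eif4ebp2, the main such repressor in brain, stood at 9.84, 6.11 and 10.02 FPKM against 12.3, 11.2 and 11.8 FPKM, each B-CTRL library being lower (-0.45 ± 0.21, and -0.23 without B-CTRL 2). Eif4enif1, the eIF4E transporter of P-bodies, was also lower without overlap (9.75, 8.84 and 11.6 against 11.9, 11.8 and 11.7 FPKM, -0.23 ± 0.14, and -0.14 without B-CTRL 2).

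**Figure D2:**
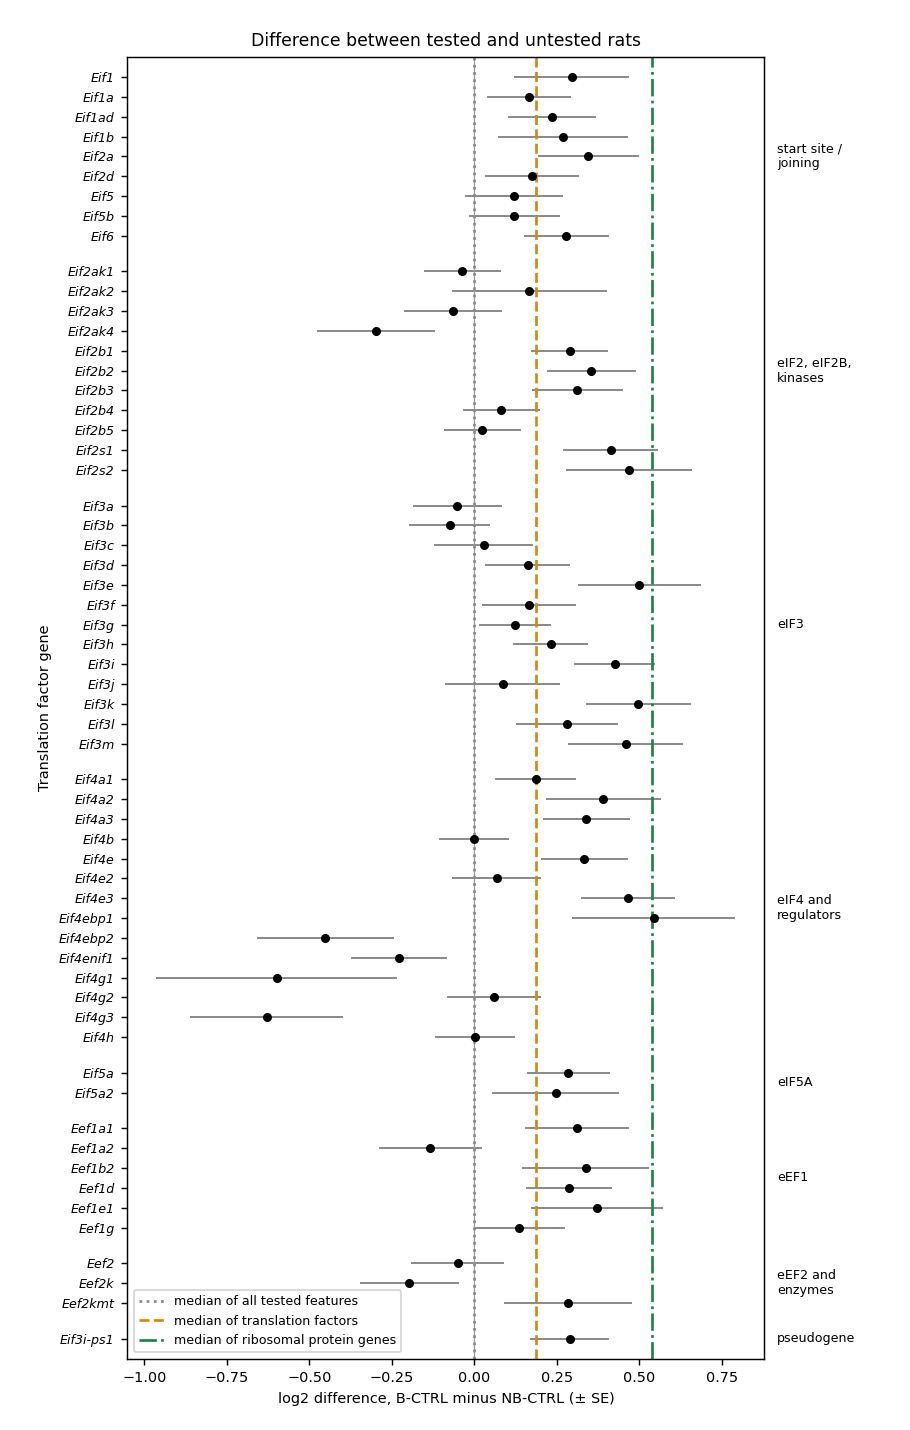
Log2 difference between B-CTRL and NB-CTRL (points) with its standard error from limma (bars) for the 59 tested translation factor features, grouped by role. Vertical lines mark the medians of all tested features (-0.0024), of the translation factors (0.19) and of ribosomal protein genes (0.54).

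Of the elongation factors, Eef1a1 and Eef1a2 encode near-identical eEF1A proteins, and in rodents Eef1a2 takes over from Eef1a1 in mature neurons and muscle. Eef1a1 stood at 1813, 1611 and 1401 FPKM against 1367, 1344 and 1168 FPKM. Each B-CTRL library was above each NB-CTRL library (1608 ± 206 against 1293 ± 109 FPKM, mean ± SD, n = 3 each), with a log2 difference of 0.31 ± 0.16 SE (limma adjusted p = 0.411), and of -0.12 with quantile normalization. Eef1a2 stood at 393, 369 and 516 FPKM against 464, 459 and 462 FPKM, overlapping and with B-CTRL 3 highest (-0.13 ± 0.16). Its difference was -0.037 without B-CTRL 2 and -0.28 without B-CTRL 3. The nucleotide exchange subunits Eef1b2 (207, 262 and 159 against 156, 173 and 158 FPKM, 0.34 ± 0.19), Eef1d (0.29 ± 0.13) and Eef1g (0.14 ± 0.14) all had higher means. Of these only Eef1d did not overlap, at 39.8, 41.3 and 38.0 FPKM against 36.8, 29.3 and 31.7 FPKM. Eef1e1, a scaffold of the tRNA synthetase complex that carries an eEF1 name, had its highest value in B-CTRL 2 (32.4 FPKM against 17.7 to 22.5 FPKM elsewhere, 0.37 ± 0.20). Eef2, the translocase, stood at 454, 428 and 543 FPKM against 523, 472 and 475 FPKM and overlapped (-0.051 ± 0.14, 0.021 without B-CTRL 2, and 0.047 with median scaling, below the shifted median of all features). Its kinase gene Eef2k, whose product slows elongation, was at 7.28, 6.05 and 7.25 FPKM against 8.41, 7.21 and 8.15 FPKM (-0.20 ± 0.15, -0.12 without B-CTRL 2 and -0.044 with the length trend removed). Eef2kmt, a methyltransferase of eEF2, was low, at 1.49 to 1.77 FPKM against 1.04 to 1.38 FPKM (0.28 ± 0.19).

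Eif5a, which helps ribosomes through proline stretches, stood at 262, 313 and 263 FPKM against 233, 219 and 232 FPKM. Its groups did not overlap (0.29 ± 0.13, limma adjusted p = 0.400), and the difference was 0.052 with quantile normalization. The paralog Eif5a2 overlapped, at 34.6, 31.8 and 24.2 FPKM against 23.0, 30.6 and 22.4 FPKM (0.25 ± 0.19, and 0.14 without B-CTRL 1 to 0.40 without B-CTRL 3).

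The ratio of paralogs within a library is independent of the library's total. Eef1a1 exceeded Eef1a2 by 4.61, 4.37 and 2.72 times in B-CTRL and 2.94, 2.93 and 2.53 times in NB-CTRL, so B-CTRL 3 fell inside the untested range. Eif4a2 exceeded Eif4a1 throughout, with an Eif4a1 to Eif4a2 ratio of 0.358, 0.340 and 0.430 against 0.475, 0.415 and 0.407. Those groups also overlapped. Of 10 such ratios, 2 separated the groups. Among single features, 11.7% had each B-CTRL library above each NB-CTRL library and 12% had each below. Eif4g2 to Eif4g3 was 5.06, 6.73 and 3.23 in B-CTRL and 2.85, 2.87 and 3.15 in NB-CTRL. Eif4ebp2 to Eif4ebp1 was 1.32, 0.905 and 1.32 in B-CTRL and 2.81, 3.17 and 1.65 in NB-CTRL. Each of the latter was thus lower in every tested library. Ratios of Eif1 to Eif1b (2.08, 2.25 and 2.67 against 2.21, 2.01 and 2.67) and of Eif5a to Eif5a2 (7.56 to 10.9 against 7.16 to 10.4) covered the same range in both groups. They are given as descriptions, because with 3 libraries a group 0.1 is the smallest p that exact permutation allows.

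**Figure D3:**
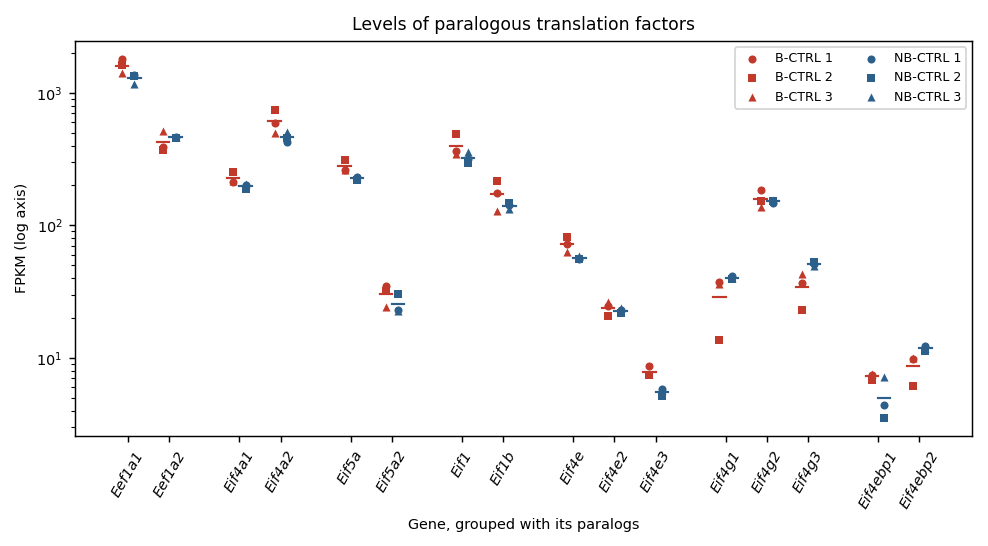
FPKM on a log axis of paralogous translation factors in the 3 B-CTRL (red) and 3 NB-CTRL (blue) libraries, with group means as short lines. Eef1a1 was the most abundant gene in both groups, and Eif4ebp1 and Eif4ebp2 lay apart in NB-CTRL (5.02 and 11.8 FPKM on average) and close together in B-CTRL (7.26 and 8.66 FPKM).

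Ribosomal protein genes had the same direction as the translation factors and a larger difference. It was more uniform over genes, but not over libraries. Of 76 cytosolic ribosomal protein symbols, 71 were found and 67 tested, and 66 of the 67 had a higher mean in B-CTRL. Their median log2 difference was 0.54 (quartiles 0.49 and 0.58), against 0.19 for the factors. Without B-CTRL 2 the ribosomal median was 0.39, and without B-CTRL 3 it was 0.64. At an unadjusted limma p under 0.05, 58 were higher and 0 lower, against 6.25% and 6.07% of all features. Each B-CTRL library lay above each NB-CTRL library for 62, against 11.7% of all features, while 0 passed limma over all features (lowest adjusted p = 0.400). Rpl17 stood at 604, 435 and 406 FPKM against 257, 250.01 and 241 FPKM (0.93 ± 0.17), and Rpl28 at 135, 159.8 and 136 FPKM against 96.3, 92.7 and 98.7 FPKM (0.58 ± 0.12). The exception was the feature listed as Rplp2, at 1.08 to 3.71 FPKM. Counted among the 66 were the features listed as Rpl7a, Rpl8 and Rpl37, with means of only 1.55, 1.67 and 1.28 FPKM. Their groups overlapped. Those of Rpl30 did too, with B-CTRL 2 at 128 FPKM against 28.2 to 49.3 FPKM elsewhere. Of the 59 factors, 1 (Eif4ebp1) reached the ribosomal median and 3 the lower ribosomal quartile (Eif3k, Eif3e and Eif4ebp1).

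Averaged over the factors in each library, the log2 deviation from a gene's overall mean came to 0.099, 0.11 and 0.021 for B-CTRL libraries, against -0.083, -0.091 and -0.060 for NB-CTRL libraries. That of ribosomal protein genes was 0.17, 0.54 and 0.063 in B-CTRL and -0.14, -0.36 and -0.27 in NB-CTRL. Both groups of genes were thus higher in each tested library than in each untested one, and B-CTRL 3 was the closest to the untested rats in both. B-CTRL 2 was well ahead of the other libraries for ribosomal proteins, and level with B-CTRL 1 for the factors. By role, the B-CTRL libraries lay above the NB-CTRL ones in full for eIF3 (0.10, 0.20 and 0.026 against -0.11, -0.11 and -0.11), eEF1, the eIF2 group and the start site and joining group. For the eIF4 group they did not (0.079, -0.10 and 0.075 against -0.013, -0.076 and 0.037). Nor did they for eIF5A, with B-CTRL 3 at -0.057 and NB-CTRL 2 at -0.022. The same held for eEF2 and its enzymes, with B-CTRL 2 at -0.13, below every NB-CTRL library. Each B-CTRL FPKM sum was also the higher, and quantile normalization, which makes the value distributions of the libraries equal, left 38 of 59 factors higher with a median of 0.11 and a ribosomal median of 0.24. Of all features 53.7% were then higher, with a median of 0.032.

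**Figure D4:**
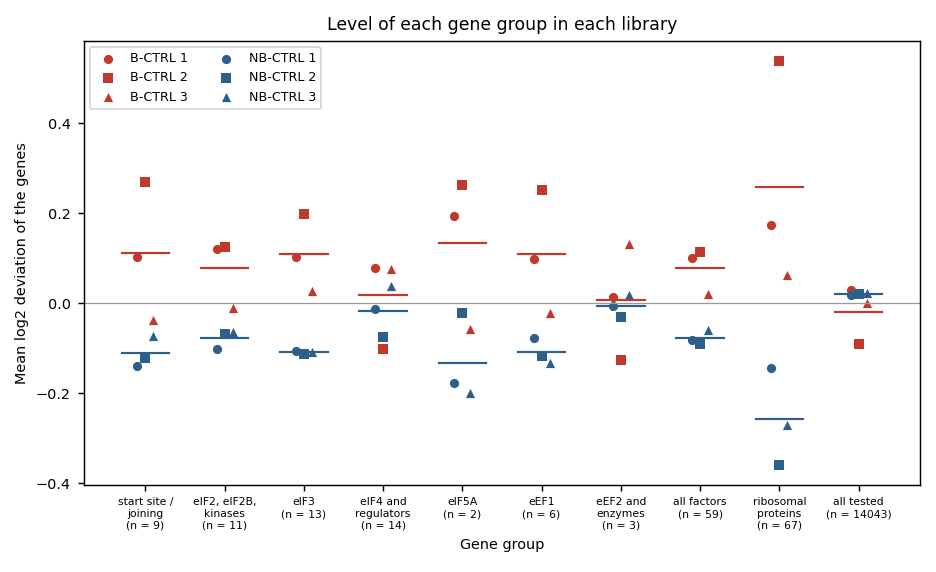
Mean log2 deviation from the 6-library mean over the genes of each role, all 59 factors, 67 ribosomal protein genes and all 14043 tested features, with 1 mark per library (red B-CTRL, blue NB-CTRL) and group means as lines. Ribosomal proteins spread from -0.36 to 0.54, and all factors from -0.091 to 0.11.

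**Figure D5:**
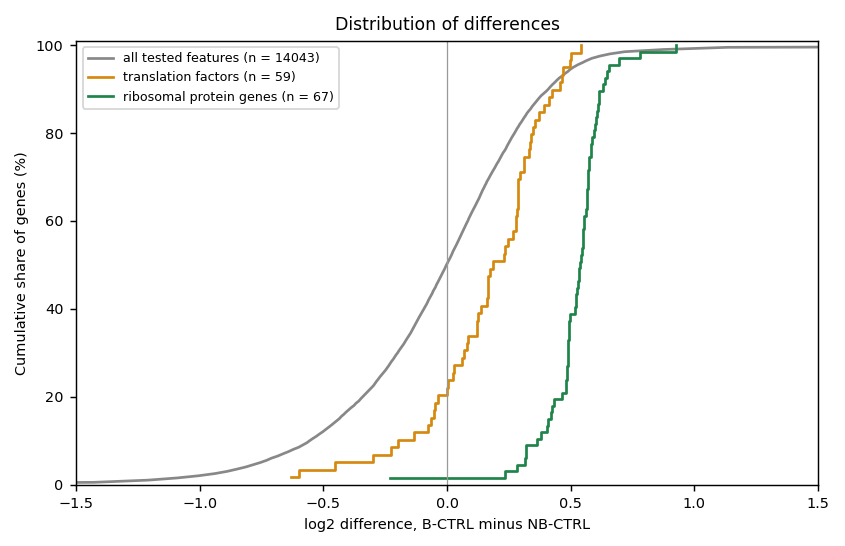
Cumulative share of genes in percent against log2 difference (B-CTRL minus NB-CTRL) for all tested features, 59 translation factors and 67 ribosomal protein genes. The factor curve lies between the others, with a lower quartile of 0.026 and an upper quartile of 0.32, and the ribosomal curve rises steeply near its median of 0.54.

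Many ribosomal protein messengers, and some factor messengers, begin with a 5′ terminal oligopyrimidine (TOP) tract, a C followed by a run of C and T bases through which mTOR and Larp1 control their translation in human and mouse cells. A list of 9 factors known as TOP messengers there (Eef1a1, Eef1b2, Eef1d, Eef1g, Eef2, Eif3e, Eif3f, Eif3h and Eif4b) had 7 higher means and a median of 0.23, and the 50 tested factors outside it had 39 higher and a median of 0.18. Promoter sequences of RefSeq (assembly GRCr8, 250 bases before to 50 after the annotated start) were available for 53 of the 61 member symbols. Each entry was searched for a C within 5 bases of the start, followed on the gene's strand by at least 5 C or T bases. The base before that C was not checked, so a run can begin further upstream. Such a tract was present in 10 of 56 factor entries (17.9%), in 36 of 60 ribosomal entries (60%) and in 9.91% of all 33469 entries. Within 25 bases the shares were 42.9%, 88.3% and 36.9%. The tract length and the windows were chosen after the sequences were seen. The sequences below run from 30 bases before to 30 after the start, are shown because they place the tract beside the start in abundant factors whose differences were unequal, and carry the tract within 5 bases of the start in capitals. Eef1a2 holds none there. Tracts were not limited to factors with higher means, since Eif4g1 and Eif4g3, the members with the lowest differences, are among the 10 that hold one within 5 bases.
Eef1a1 (chr8:88225040-88225099, minus strand): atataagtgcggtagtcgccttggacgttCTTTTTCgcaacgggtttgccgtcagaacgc
Eef1a2 (chr3:188652604-188652663, minus strand): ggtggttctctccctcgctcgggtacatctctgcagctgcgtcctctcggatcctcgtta
Eef1b2 (chr9:72074061-72074120, plus strand): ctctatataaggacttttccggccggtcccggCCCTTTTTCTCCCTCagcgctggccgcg
Eif3f (chr1:172369032-172369091, plus strand): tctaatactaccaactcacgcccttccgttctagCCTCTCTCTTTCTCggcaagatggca
Eif3m (chr3:111897164-111897223, minus strand): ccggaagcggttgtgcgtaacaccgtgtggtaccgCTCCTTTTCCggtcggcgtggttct
Rpl28 (chr1:78083503-78083562, minus strand): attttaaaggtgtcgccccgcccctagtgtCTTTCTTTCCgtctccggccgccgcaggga
Eif3m, with a tract of 10 bases, had a log2 difference of 0.46 ± 0.17 and Eif3f, with 14 bases, one of 0.17 ± 0.14. A tract in these letters is a description of the sequence near an annotated start and not evidence of a transcript's own first base.

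As a background for the lists that follow, 49.7% of all tested features and 78.0% of the factors had a higher mean. Of these other genes of translation and its control, 0 passed limma over all features. At an unadjusted limma p under 0.05, 1 was higher and 2 were lower, against 6.25% and 6.07% of all features. Of 5 tested termination and recycling genes all 5 had a higher mean (median 0.12), with no group separated, and the lowest p-values were those of Denr (0.20 ± 0.15) and Hbs1l (0.19 ± 0.13). Of 22 aminoacyl-tRNA synthetase genes and partners, which charge tRNAs, 14 had a higher mean (median 0.082). Rars, for arginine, stood at 29.4, 31.0 and 23.9 FPKM against 21.8, 22.3 and 23.1 FPKM (0.31 ± 0.14), and Aimp2, a scaffold of the synthetase complex, differed by 0.31 ± 0.14. Of 9 mitochondrial translation factors 7 had a higher mean (median 0.12), among them the release factor gene Mtrf1 at 11.7, 13.6 and 11.1 FPKM against 7.96, 9.04 and 9.42 FPKM (0.44 ± 0.15). Of 11 tested targets of the integrated stress response, which follows eIF2 phosphorylation, 8 had a higher mean (median 0.12). The serine synthesis gene Psat1 led them (0.42 ± 0.18, with overlap), followed by Phgdh of the same pathway (0.39 ± 0.18).

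Signalling genes upstream of the factors mostly had lower means. Of 14 mTOR and MAP kinase pathway genes 10 had a lower mean (median -0.24), where 50.3% of all tested features did. Their loci were long (median 40.1 kb). Of all own-locus features above 33.3 kb, 33.6% had a higher mean (median -0.14). At an unadjusted limma p under 0.05, where 6.07% of all features were lower and 6.25% higher, 0 of the 14 were higher and 1 was lower. That gene was Larp1, the TOP messenger-binding protein, at 18.7, 7.33 and 19.5 FPKM against 26.6, 32.8 and 28.3 FPKM (-1.04 ± 0.36, limma adjusted p = 0.400). Tsc2, a brake on mTOR, stood at 28.0, 26.8 and 32.7 FPKM against 35.4, 36.2 and 35.4 FPKM (-0.29 ± 0.13). Both had each B-CTRL library below each NB-CTRL library, and Larp1 was lowest in B-CTRL 2, as Eif4g1 and Eif4g3 were. Of 5 poly(A)-binding proteins and partners 3 had a higher mean (median 0.064). The inhibitors Paip2b (31.4, 25.3 and 30.7 against 36.6, 37.3 and 36.0 FPKM, -0.33 ± 0.13) and Paip2 (165, 221 and 119 against 124, 141 and 128 FPKM, 0.32 ± 0.23) had opposite signs.

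Differences also went with the length of the locus, the only length the table gives. Among the 40 tested factors with a locus of their own, Spearman's rho between locus length and log2 difference was -0.20, and among 11017 such features of all kinds it was -0.30. These points share the same 6 libraries. Among the shortest loci, up to 10.4 kb, 13 of 14 factors had a higher mean with a median of 0.27, where all features of that class had 63.5% higher and a median of 0.11. Between 10.4 and 33.3 kb, 16 of 18 factors were higher (median 0.16, against 0.036 for all), and above that length 4 of 8 (median 0.051, against -0.14 for all). The trend was strongest in B-CTRL 2, where rho between length and the factors' deviations was -0.33, against -0.055 to 0.28 in the other libraries. Removing each library's trend with length left 47 of 59 factors higher with a median of 0.18, where 55.3% of all features were then higher with a median of 0.044. After that removal 66 of 67 ribosomal protein genes were higher, with a median of 0.45. Their loci were shorter than those of the factors (median 2.9 against 16.7 kb). For a background at similar levels, of 4097 tested features between 20.1 and 93.4 FPKM, the interquartile range of the factors' means, 57.0% had a higher mean in B-CTRL (median 0.053).

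Shared loci limit single values. Of the 59 tested factors 19 had the same locus entry as another feature. In 8 of these the other features stayed under 1 FPKM on average, as with the small nucleolar RNA genes SNORD37 beside Eef2 and SNORD66 beside Eif4g1. In 11 at least 1 other feature reached 1 FPKM or more, as with Srp14 beside Eif2ak4 and Serp1 beside Eif2a. Leaving out all shared loci kept 33 of 40 factors higher (median 0.17) and 40 of 40 ribosomal protein genes (median 0.55).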

How the data were processed

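Per the file headers, the deposited table holds FPKM for 6 libraries. STAR 2.5.4b, Cuffdiff 2.2.1 and rn6 appear in the submitters' processing notes. Their settings, the annotation and strand handling were not given in the sources used here. As the table holds no counts, absolute depth is unknown. Steps between low values gave rough depths relative to NB-CTRL 1 of 1.11, 0.738 and 1.36 (B-CTRL) and 1.62 and 1.60 (NB-CTRL 2 and 3).

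The 14043 features averaging 0.5 FPKM or more were compared as log2(FPKM + 0.5) with limma 3.58.1 in R 4.3.3, with an intensity trend, 2-sided, without covariates, Benjamini-Hochberg adjusted over all features, threshold 0.05. This scale understates the change of low genes. Residual degrees of freedom were 4, and the median standard error was 0.20. On simulated data of 14043 genes, 56% of 2-fold and 96% of 4-fold changes were called, with 9 false calls. The simulated noise was independent between genes, without the deviations that genes share within a library here, and low genes were given no change. These rates may therefore not hold for this comparison, in which no factor's difference reached 2-fold.

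Members and lists were chosen with earlier results of these data known. Of 194 list symbols 8 matched no feature and 1 matched by synonym. In lists a repeated symbol took its feature with the highest mean, and X and Y were left out of pathway lists. Genes named were the 10 members of lowest p on either side that averaged 1 FPKM or more, the most abundant of each role, paralogs, kinases and the 2 pathway genes of lowest p per list; others were named after their values were seen. Alternatives were a pseudocount of 0.1 or 1, a minimum of 1 FPKM or none, quantile normalization, median scaling, removal of the length trend (loess, span 0.5), no trend, robust moderation, library weights, a replicate block, no shared loci, and leaving out each library.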

Additional observations from a re-analysis of the deposited data

How the results depend on the processing

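Over 18 alternative settings 0 translation factors passed the threshold in any. The factors' median log2 difference was 0.28 with median scaling and 0.11 with quantile normalization, where that of all features was 0.087 and 0.032, and 0.16 to 0.24 over the 6 fits without 1 library. That of ribosomal protein genes was 0.24 with quantile normalization and 0.39 to 0.64 without 1 library, and the number of them with a higher mean was 40 of 40 without shared loci, where fewer genes were tested. Factors higher at an unadjusted p under 0.05 numbered 12, and 7 without shared loci, 4 with the replicate block and 2 to 19 without 1 library. The share of all features so called was 6.25%, and 6.20%, 4.47% and 1.74 to 12.9% in those settings. Those lower numbered 1, and 0 to 3 without 1 library. Same-numbered libraries deviated together with correlations of -0.22, 0.072 and 0.15, and B-CTRL 1 correlated best with NB-CTRL 2 (0.22), so the numbers were not taken as pairs; the block changed no adjusted call.

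Of 36 named factors 25 kept their direction in every setting they were fitted in, the setting without shared loci dropping those that share one. Median scaling raised the median of all features to 0.087, and Eef2 (0.047), Eif2ak1 (0.060), Eif2ak3 (0.027), Eif3a (0.045) and Eif3b (0.021) passed 0 by no more than that common shift. With quantile normalization those of Eef1a1 (-0.12), Eif2ak3 (0.047), Eif3f (-0.0040), Eif4a1 (-0.021) and Eif4g2 (-0.12) turned, and after removal of the length trend those of Eif2ak1 (0.026) and Eif2ak3 (0.086). Without 1 library the ranges that crossed 0 were those of Eif2ak2 (-0.056 to 0.35), Eif4g2 (-0.058 to 0.16), Eef2 (-0.15 to 0.021), Eif2ak1 (-0.096 to 0.0071), Eif3a (-0.12 to 0.053), Eif4e2 (-0.00075 to 0.16) and Eif2ak3 (-0.13 to 0.0080). For the settings other than median scaling the cause was not tested. Depth limits Eif2ak4, Eef2kmt and Eif4e1b most, as the factors of lowest level.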
